A study of Arabidopsis thaliana with 12 samples.

Results

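Whole seedlings of Arabidopsis thaliana that overexpress CCA1 were compared with wild-type seedlings in the first dark period of the day. The samples were chosen by their titles: 3 arrays of the line CCA1-34 and 3 arrays of the wild type Columbia (Col), all at 280 min after dawn, which makes 6 of the 12 arrays of the series. Seedlings of both lines had been entrained for 4 short days of 8 h light and 16 h darkness. They then received 160 min of light alternating with 320 min of darkness and were collected 120 min after lights-off. Each line gave an array at 5, 6 and 7 days of age, numbered as replicates 1, 2 and 3, from dishes of about 100 seedlings on sucrose medium. CCA1-34 is described as arrhythmic and is a single line, and the labels do not name the promoter that drives its CCA1. Both lines elongate in the dark at this hour, per the series' design text. At 1240 min after dawn, the late time of the other 6 arrays, CCA1-34 elongates and Col does not. The question was therefore which transcripts differ between the lines at an hour when both grow.

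CCA1 is a Myb-related transcription factor that peaks around dawn and, with its close relative LHY, represses evening-phased clock genes such as TOC1. The clock in turn gates the bHLH factors PIF4 and PIF5, which promote hypocotyl elongation in darkness through auxin and cell wall genes. Plants with constantly high CCA1 lose their rhythms and have long hypocotyls.

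All values are the deposited log2 RMA values, and all differences are CCA1-34 minus Col on the log2 scale, so that a positive difference means a higher signal in CCA1-34. Of 22746 probe sets, 1 passed the threshold (limma adjusted p under 0.05) as higher in CCA1-34, or 0.0044% of those tested, and 0 passed as lower (0%). At an unadjusted p under 0.05 there were 813 (3.57%), of which 398 were higher (1.75%) and 415 lower (1.82%), against 1137.3 that chance would give. The median size of a difference was 0.109 and 90% of differences were smaller than 0.335. Differences over 1 were found for 130 probe sets, 76 higher and 54 lower. The marker genes of leaf photosynthesis averaged 11.9 to 12.3 in the 6 arrays and the flower markers, AG, AP1, AP3, PI and SEP3, averaged 1.88 to 2.0, near the lowest values of the arrays, for tissue labelled as whole seedlings. In whole seedlings a changed share of a cell type and a changed level per cell cannot be told apart.

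An array of each line stood apart from its group in genes that respond to light. In the 6-day CCA1-34 array the 27 measured photoreceptors and light regulators lay 1.01 above the mean of the line's other arrays, and the 14 shade- and PIF-induced genes lay 1.25 below it (difference -1.25). In the 7-day Col array the same lists differed by 0.71 and -1.51. The 7-day Col array also had higher genes of handling, touch and heat response (0.95 over 14 genes, against -0.02 in the 6-day CCA1-34 array) and lower root markers (-1.32). The 12 morning-phased clock genes lay 1.50 higher in the 6-day CCA1-34 array and 1.36 higher in the 7-day Col array. Over all probe sets the 6-day CCA1-34 array did not stand apart. It correlated at 0.978 and 0.98 with the line's other early arrays, which correlated at 0.98 with each other. The 7-day Col array correlated at 0.962 and 0.968 with the other early Col arrays, against 0.985 between those. Both arrays were kept, and values without them are given beside the lists that they move most. The lists that set these arrays apart are among those. Without both arrays CCA1-34 is left with 5 and 7 days and Col with 5 and 6 days. The ages of the lines then no longer match, and line and age are partly mixed in those values.

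ACBP6 (AT1G31812), the gene of an acyl-CoA-binding protein found in the cytosol, was the transcript that rose past the threshold in CCA1-34. It read 10.94, 11.16 and 10.97 in CCA1-34 at 5, 6 and 7 days, against 3.72, 3.85 and 3.74 in Col. The arrays of the lines were far apart at every age, with differences of 7.22, 7.30 and 7.22. The mean difference was 7.25 (SE 0.117, 95% interval 6.99 to 7.51, limma adjusted p = 1.79e-10). Col lay below the median of its arrays and was not shown to be above background, so this size is at best a lower bound. At the late time the difference was 7.38, and the difference between the times was -0.13 (limma adjusted p = 1). The other 4 measured acyl-CoA-binding protein genes, ACBP1, ACBP2, ACBP4 and ACBP5, differed by -0.15 to 0.09. ACBP4 was the lowest of these, with non-overlapping groups at 6.17, 6.05 and 6.22 in CCA1-34 and 6.28, 6.34 and 6.27 in Col. The 3 genes on either side of ACBP6 in the TAIR10.1 annotation were all measured and differed by -0.20 to 0.19, and 0 of them passed.

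CCA1 (AT2G46830) itself read 8.46, 9.11 and 9.16 in CCA1-34, against 2.47, 4.21 and 6.37 in Col. Every CCA1-34 array was above every Col array, while the Col arrays spread over several log2 units and were highest at 7 days. The means were 8.91 ± 0.39 in CCA1-34 and 4.35 ± 1.95 in Col (SD, n = 3 each), a difference of 4.56 (SE 0.777, 95% interval 2.84 to 6.28). The 5-day Col value lay below the median of its array, and no detection call shows it above background. The size of the difference is therefore uncertain. With this spread in Col the difference missed the threshold (limma adjusted p = 0.627). An exact permutation test of the early arrays gave p = 0.1, two-sided, the smallest that the 20 assignments of 3 against 3 allow. Without the 7-day Col array the difference was 5.57 and passed (limma adjusted p = 0.0185), and without both arrays that stood apart it was 5.47 (0.095). The array does not tell the transgene's transcript from that of the native gene. Of the 6 nearest genes 5 were measured, and they differed by -0.37 to -0.01.

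AT3G25150, for which the annotation used here gives no symbol, had the largest non-overlapping difference in the other direction. It read 4.21, 3.46 and 4.91 in CCA1-34, against 6.66, 6.61 and 6.51 in Col. The Col arrays lay within a narrow range, and the CCA1-34 arrays were all lower and more spread. The difference was -2.40 (SE 0.281, limma adjusted p = 0.0544), which just missed the threshold. It passed in 6 of the other settings tried, with limma adjusted p between 0.00203 and 0.0435. It did not pass in the rest. These include the replicate block, the early arrays alone, the robust prior, array weights and the fit without both arrays that stood apart. At the late time the difference was -2.11, and the 6 neighbouring genes differed by -0.17 to 0.10.

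**Figure D1:**
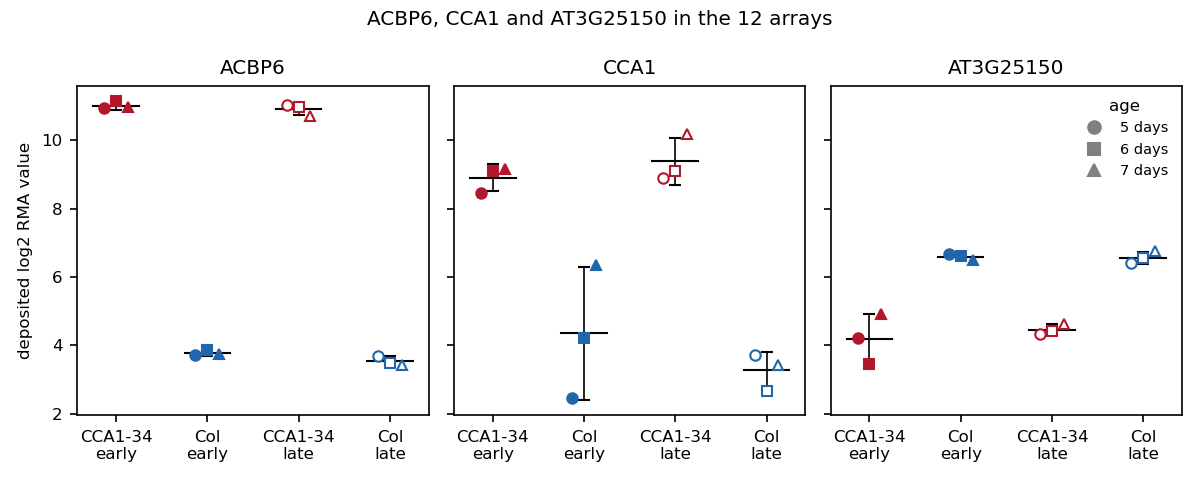
Deposited log2 values (vertical axis) of ACBP6, CCA1 and AT3G25150 in the 12 arrays by group (horizontal axis), with bars for the mean ± SD of n = 3 and marker shapes for age. In the early dark ACBP6 and CCA1 lay above all Col arrays in each CCA1-34 array and AT3G25150 lay below them, and the Col values of CCA1 ran up to 6.37.

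Differences over 2 were found for 6 probe sets, of which 5 did not overlap between the groups: ACBP6, CCA1, SESA5, PSK2 and AT3G25150. The other gene, AT1G23130, read 2.3, 2.57 and 4.01 in CCA1-34 and 3.79, 5.34 and 7.58 in Col. It differed by -2.61 (SE 0.991) with overlapping groups. Over all probe sets, every CCA1-34 array lay above every Col array in 3.27% (744) and below every Col array in 4.49% (1021). Of all probe sets 9.76% were higher and 13.1% lower at all 3 ages. These shares are the background for the counts of gene groups that follow, together with the 48% of probe sets whose mean was higher in CCA1-34.

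**Figure D2:**
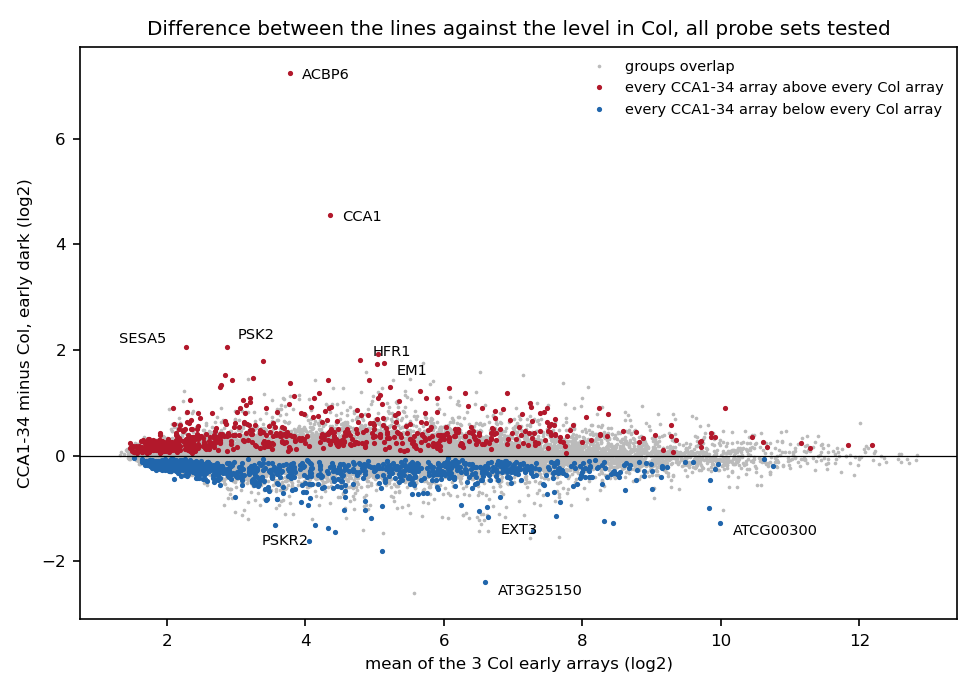
Difference between the lines in the early dark (vertical axis, log2) against the mean of the 3 Col arrays (horizontal axis, log2), with a point for each of 22746 probe sets and colour for non-overlapping groups. ACBP6 (7.25) and CCA1 (4.56) lie far above the rest and AT3G25150 (-2.40) is the lowest of the coloured points, while 90% of points lie within 0.335 of 0.

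The other clock genes showed no difference past the threshold. Of 12 measured morning-phased clock genes 7 had a higher mean in CCA1-34, with a median difference of 0.10, and 1 did not overlap between the groups, CCA1 itself. Without both arrays that stood apart the median was 0.01. LHY, the partner of CCA1, read 3.40, 6.33 and 3.25 in CCA1-34 and 3.87, 5.34 and 6.74 in Col. It was high in the arrays of each line that stood apart, and the groups overlapped (difference -0.99, SE 0.891). RVE2, another Myb factor of the family, named here after its values were seen, differed by -0.94 (SE 0.644). PRR7, a pseudo-response regulator that represses CCA1 and LHY, differed by 0.21 (SE 0.530), and PRR5 by -0.67 (SE 0.467).

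The list of evening-phased clock genes, which holds known targets of CCA1 among others, had a median difference of 0.11 over 15 measured members. Of the means 9 were higher in CCA1-34, and the median was 0.215 without both arrays that stood apart. TOC1, the classical target, read 5.20, 4.96 and 5.57 in CCA1-34, against 5.49, 5.57 and 6.36 in Col. It was lower in CCA1-34 at each age, but the 7-day CCA1-34 array lay above the 5-day Col array (difference -0.56, SE 0.295, limma adjusted p = 1). Without both arrays that stood apart the TOC1 difference was -0.15. ELF4, of the evening complex that represses growth genes at night, was the 1 member whose groups did not overlap. It read 2.99, 3.24 and 3.02 in CCA1-34 and 3.24, 3.43 and 5.42 in Col, where the 7-day array alone was high and the 5-day array all but met the CCA1-34 arrays (difference -0.94, SE 0.480, and -0.33 without both arrays). LUX, which belongs to the same complex, differed by -0.35 (SE 0.293). GI, which acts in the clock and in flowering, read 6.40, 6.81 and 5.82 in CCA1-34 and 6.36, 4.33 and 7.5 in Col, so that the lowest and the highest array were both of Col (difference 0.28, SE 0.626). PRR3, chosen after its values were seen, had the highest difference of the list, at 3.33, 3.96 and 3.78 in CCA1-34 and 2.56, 2.44 and 3.35 in Col (difference 0.91, SE 0.288). Of 12 photoperiod and flowering genes FT had non-overlapping groups (difference -0.11), at 1.97 to 2.07 in CCA1-34 and 2.12 to 2.15 in Col, near the lowest values of the arrays.

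None of the 15 measured PIF and growth-related bHLH genes passed at this hour (0 of 15), and their differences ran from -0.62 for BEE3 to 1.80 for HFR1. PIF4 read 6.64, 6.70 and 7.04 in CCA1-34, against 6.52, 6.27 and 6.49 in Col. Every CCA1-34 array was higher, by a small margin (difference 0.36, SE 0.463, 95% interval -0.66 to 1.39). PIF5 read 7.03, 7.53 and 7.12 in CCA1-34, against 6.92, 7.17 and 7.88 in Col, and the groups overlapped (difference -0.10, 95% interval -1.19 to 1.00). The intervals use the spread pooled over the early and late arrays of both lines, not that of the early arrays alone. On that pooled spread they leave room for differences of over 1 in PIF4 upward and of about 1 in PIF5 in either direction. The early PIF4 values themselves ran only from 6.64 to 7.04 in CCA1-34 and from 6.27 to 6.52 in Col. HFR1, an atypical bHLH factor that restrains PIFs in shade, had the largest difference of the 15 measured bHLH genes. It read 5.80, 6.38 and 7.61 in CCA1-34 and 5.00, 5.21 and 4.17 in Col, with no overlap (difference 1.80, SE 0.548, limma adjusted p = 1). PRE1, a gene of a small growth-promoting bHLH protein, picked with its values known, differed by 0.98 (SE 0.602). Over the list 8 of 15 means were higher in CCA1-34, with a median of 0.09, and 6 with a median of -0.01 without both arrays that stood apart.

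**Figure D3:**
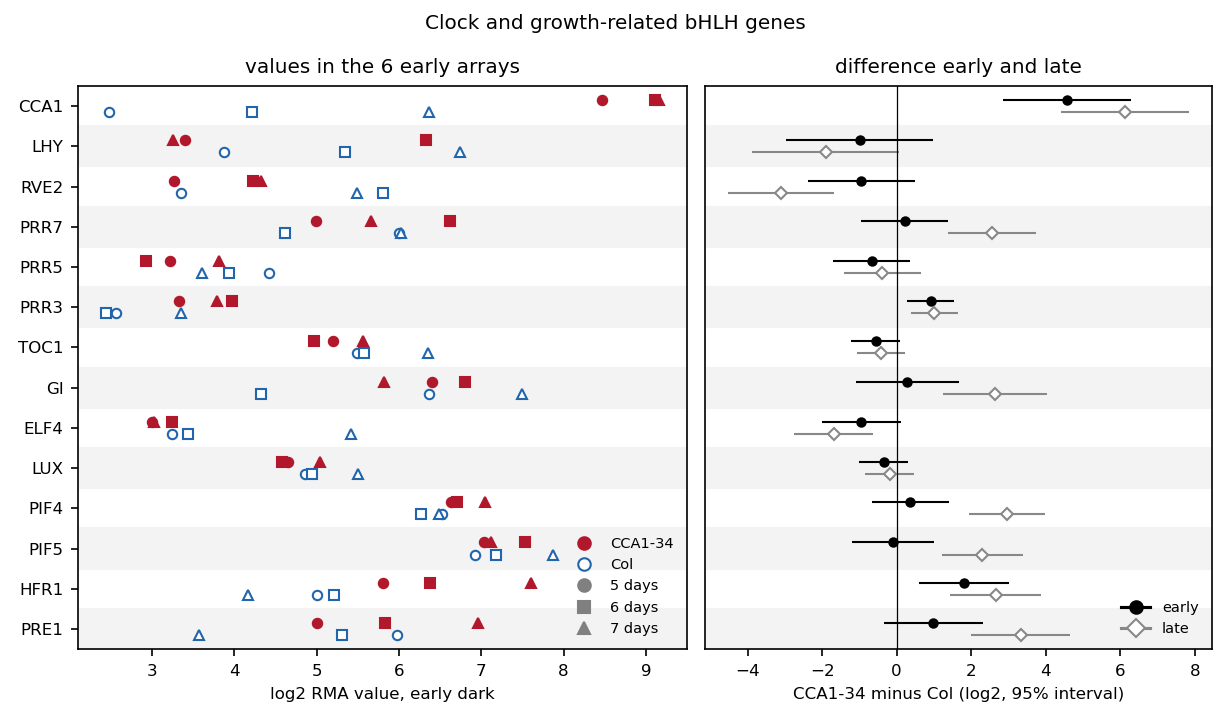
Left, log2 values of clock and bHLH genes in the 6 early arrays (horizontal axis), with CCA1-34 filled, Col open and shapes for age. Right, the difference CCA1-34 minus Col (log2) with its 95% interval at the early and the late time, where that of PIF4 was 0.36 early and 2.95 late and that of CCA1 was 4.56 early and 6.12 late.

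Several of these genes had larger fitted differences at the late time, and the test of the change did not pass for any of them. The difference of PIF4 was 2.95 late, so that the early difference was smaller by 2.59 (difference between the times -2.59, SE 0.655), and for PIF5 it was 2.3 late (-2.40 between the times, SE 0.699). PRR7 and GI differed by 2.56 and 2.64 late, with -2.35 and -2.36 between the times, and PRE1 by 3.32 late (-2.34). RVE2 had a late difference of -3.10 (2.16 between the times). TOC1, PRR5 and LUX had smaller differences late than early, at -0.42, -0.38 and -0.19. LHY and ELF4 had larger ones late, at -1.90 and -1.69, in the same direction as early. Over all probe sets 0 passed the test of the difference between the times in limma (0%), and 465 had an unadjusted p under 0.05 (2.04%). The difference was smaller early than late, in the signed sense, for 13 of 15 bHLH genes, 14 of 14 shade- and PIF-induced genes and 21 of 22 auxin genes, against 51.5% of all probe sets. It was so for 7 of 12 morning-phased and 8 of 15 evening-phased clock genes. The median differences between the times were -0.85 for the bHLH, -1.38 for the shade and -0.89 for the auxin genes and -0.01 over all probe sets, and 0 members of these 5 lists passed.

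Genes downstream of the PIFs had small median differences in the early dark, and 0 passed. Of 14 shade- and PIF-induced genes 11 had a higher mean in CCA1-34, with a median of 0.15, and of 22 auxin synthesis and response genes 16 were higher, with a median of 0.19. Without both arrays that stood apart the medians were -0.01 and -0.04, with 7 of 14 and 10 of 22 higher. IAA17, an auxin-response repressor, was the auxin gene with non-overlapping groups. It read 8.36, 8.61 and 8.37 in CCA1-34, against 7.95, 7.88 and 7.76 in Col (difference 0.58, SE 0.144). Its difference at the late time was also 0.58. CKX5, a cytokinin oxidase that is induced in shade, read 4.51, 4.16 and 5.54 in CCA1-34, against 3.81, 3.70 and 3.78 in Col (difference 0.97, SE 0.423), and the 7-day CCA1-34 array was the highest.

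Cell wall loosening and cellulose genes mostly had higher means in CCA1-34. Of 29 measured genes 27 had a higher mean in CCA1-34, against 48% of all probe sets, although the median difference was only 0.24 and 0 members passed. At all 3 ages 8 of the 29 were higher, against 9.76% of all probe sets. The 29 were all above the median level of the probe sets, whereas the 48% includes dim ones. The list averaged 7.87, 8.01 and 7.96 in CCA1-34, against 7.71, 7.73 and 7.48 in Col, with the 7-day Col array lowest. Without both arrays that stood apart 22 of 29 were higher, with a median of 0.15. XTH17, a xyloglucan endotransglucosylase that remodels wall glucans, was the member whose groups did not overlap. It read 7.76, 7.80 and 7.34 in CCA1-34, against 7.26, 7.11 and 6.5 in Col (difference 0.68, SE 0.253). XTH16, of the same family and named after its values were seen, had the highest difference, 0.99 (SE 0.419), and 0.16 without both arrays.

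Other hormone genes were described in the same way. Of 21 gibberellin genes 16 were higher in CCA1-34 (median 0.17, and 0.01 with 11 of 21 higher without both arrays). RGA, a DELLA repressor of gibberellin responses, read 7.70, 7.69 and 7.85 in CCA1-34 and 7.5, 7.37 and 7.5 in Col (difference 0.29, SE 0.107), and GA2OX2, a gibberellin-inactivating oxidase, differed by 0.24. Of 11 brassinosteroid genes 9 were higher (median 0.28, and 0.13 without both arrays), and ROT3, a brassinosteroid biosynthesis enzyme, differed by 0.55 (SE 0.213) without overlap. Of 15 cytokinin genes 11 were higher (median 0.15), and CKX5, ARR16 (0.49) and ARR9 (0.44), both type-A response regulators, did not overlap. Of 18 ethylene genes 10 were higher (median 0.01). ACS6, which makes the ethylene precursor, read 4.92, 4.68 and 4.99 in CCA1-34 and 4.01, 4.19 and 4.52 in Col (difference 0.63, SE 0.133, limma adjusted p = 0.968). At the late time it differed by 1.28 and passed (limma adjusted p = 0.018), 1 of 2 probe sets that did so at that time (0.00879%).

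Of the 27 photoreceptors and light regulators 21 had a higher mean in CCA1-34, with a median of 0.18, and 18 with 0.09 without both arrays that stood apart. CRY2, a blue light receptor, read 8.06, 7.83 and 8.18 in CCA1-34 and 7.79, 7.80 and 7.44 in Col (difference 0.34, SE 0.170). BBX22, a B-box factor of light signalling, was lower in every CCA1-34 array, at 4.93, 5.63 and 5.28, against 6.23, 5.87 and 5.64 in Col (difference -0.63, SE 0.219). The 6-day CCA1-34 array almost reached the 7-day Col array, so this separation is narrow. Light harvesting and chlorophyll genes had a median of 0.03 over 18 genes, with 12 higher, and -0.10 with 1 of 18 higher without both arrays. The 18 flavonoid genes had a median of 0.26 with 14 higher, and 0.55 without both arrays. DFR, an enzyme of anthocyanin synthesis named after its values were seen, read 8.07, 8.53 and 5.75 in CCA1-34 and 6.39, 3.80 and 6.93 in Col. The groups overlapped widely (difference 1.75, SE 0.991), as they did for CHS, the entry enzyme of the pathway, chosen in the same way (1.09, SE 0.753).

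Of the metabolic and stress genes 0 passed, and several list medians moved with the arrays that stood apart. Starvation-induced genes had a median of 0.04 (8 of 15 higher) and starch genes of 0.01 (10 of 19). Among the starch genes LDA, the limit dextrinase of starch breakdown, read 5.53, 5.82 and 5.95 in CCA1-34 and 5.15, 5.37 and 5.44 in Col (difference 0.45, SE 0.177). Without both arrays the starch median was 0.16, with 16 of 19 higher. Catalase and nitrogen assimilation genes had a median of -0.18 (2 of 9 higher, and -0.09 without both arrays) and aliphatic glucosinolate genes of -0.14 (4 of 10). The glucosinolate list gave 0.30 with 10 of 10 higher without both arrays. Handling, touch and heat genes gave -0.12 (5 of 14), and 0.25 without both arrays. Of 25 cold, dehydration and abscisic acid genes 15 were higher (median 0.18), and 18 (median 0.29) without both arrays. RAB18, a dehydrin, read 7.92, 7.71 and 8.13 in CCA1-34 and 7.41, 7.55 and 6.44 in Col (difference 0.79, SE 0.310). GOLS3, a galactinol synthase, differed by 0.58 (SE 0.172), and CBF3, a cold-response activator near the lowest values of the arrays, by -0.30.

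Embryo genes were among the largest differences. Of 14 seed and embryo markers 3 did not overlap and were higher in CCA1-34, or 21.4%, against 3.27% of all probe sets, and 10 had a higher mean (median 0.54, and 0.30 without both arrays that stood apart). EM1, a late embryogenesis abundant protein gene that is normally active in maturing seeds, read 6.61, 7.07 and 6.97 in CCA1-34, against 5.03, 5.19 and 5.18 in Col. The lines were well separated at each age, with a difference of 1.76 (SE 0.362, 3.38-fold, limma adjusted p = 0.968). EM6, of the same family, read 5.46, 5.88 and 5.95 in CCA1-34 and 3.90, 5.30 and 3.80 in Col (difference 1.43, SE 0.458). At the late time EM1 differed by 1.81 and EM6 by 0.56, while over the 14 markers 6 means were higher, with a median of -0.09.

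Storage protein and oil body genes varied with the array. SESA5, a seed storage albumin gene, read 4.76, 5.73 and 2.51 in CCA1-34, against 2.29, 2.1 and 2.43 in Col. The 7-day CCA1-34 array was at the level of Col, and without it the difference was 2.98 and passed (limma adjusted p = 0.00428, against 2.06 and adjusted p = 1 with it). CRU3, a cruciferin storage protein gene named, like OLEO1, with its values known, read 6.11, 6.93 and 8.39 in CCA1-34 and 4.43, 7.76 and 5.19 in Col (difference 1.35, SE 1.031), and OLEO1, an oil body protein gene, followed with 1.2 (SE 0.894). SESA1 to SESA4 and CRU2 differed by -0.43 to 0.04. Beyond the list, 3 genes were chosen after their values were seen. LEA (AT2G21490), another late embryogenesis abundant gene, read 4.47, 4.30 and 4.31 in CCA1-34 and 2.96, 3.19 and 2.38 in Col (difference 1.52, SE 0.262). ECP63, also of this class, differed by 1.46 (SE 0.284) and GASA3, of a gibberellin-regulated peptide family, by 1.31 (SE 0.386), both without overlap. The 14 seed and embryo markers averaged 4.84, 5.27 and 5.54 in CCA1-34 and 4.12, 5.23 and 4.38 in Col, and the part of seed tissue in these differences was not tested.

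**Figure D4:**
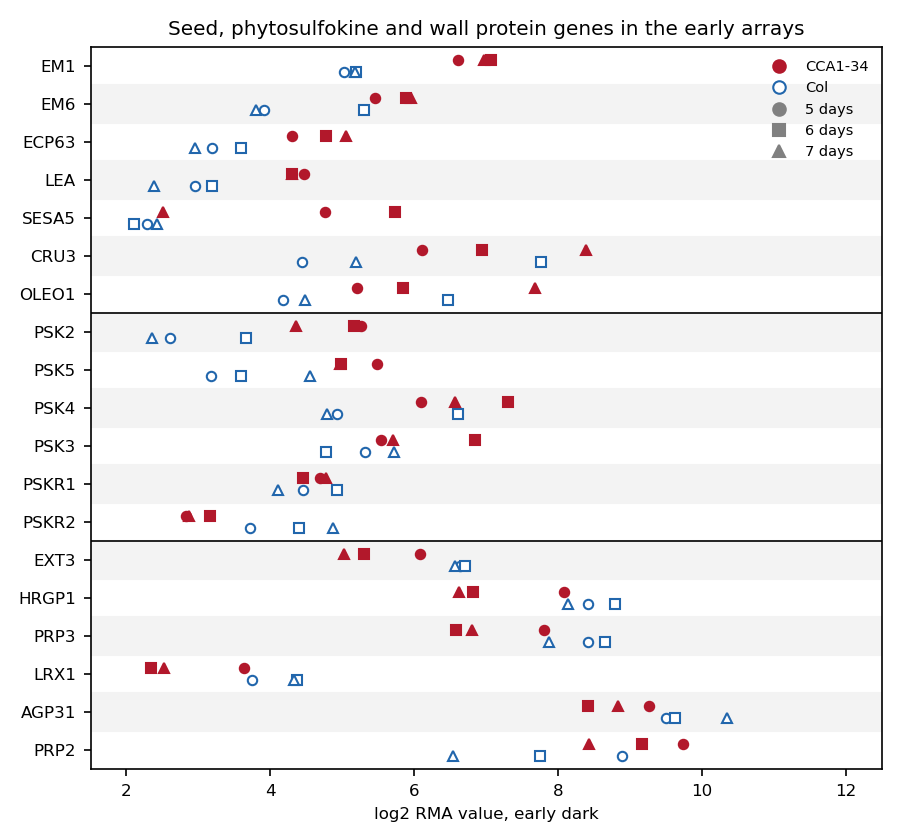
Log2 values (horizontal axis) of seed, phytosulfokine and wall protein genes in the 6 early arrays, with CCA1-34 filled above Col open and shapes for age. EM1, PSK2 and PSK5 were higher in every CCA1-34 array, EXT3, HRGP1 and PSKR2 were lower in every CCA1-34 array, and CRU3 and OLEO1 overlapped.

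Genes of phytosulfokine, a sulfated peptide hormone that promotes cell expansion, differed in both directions. This list was added after its values were seen, so its members are given as a description, and 7 of its 8 genes were measured. PSK2, a precursor gene, read 5.26, 5.16 and 4.36 in CCA1-34, against 2.60, 3.66 and 2.36 in Col (difference 2.05, SE 0.512). PSK5 read 5.48, 4.98 and 4.96 in CCA1-34, against 3.18, 3.6 and 4.55 in Col (difference 1.37, SE 0.333). Neither overlapped, and all 5 precursor genes measured had a higher mean in CCA1-34, with PSK4 at 1.22, PSK3 at 0.76 and PSK1 at 0.30. PSKR2, a receptor gene, read 2.83, 3.16 and 2.87 in CCA1-34 and 3.71, 4.40 and 4.87 in Col, with every CCA1-34 array lower (difference -1.38, SE 0.250, limma adjusted p = 0.627). PSKR1, the main receptor gene, differed by 0.14 (SE 0.203). At the late time PSK2 differed by 1.62 and PSKR2 by -1.25.

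Wall structural protein genes mostly had lower means in CCA1-34, and 0 passed. This list, too, was added after its values were seen, so that its counts only describe the genes picked. Of 9 extensin and proline-rich protein genes 5 lay below Col in every array (median -1.11, and -0.91 without both arrays). EXT3, an extensin needed for wall assembly, read 6.08, 5.30 and 5.02 in CCA1-34, against 6.63, 6.71 and 6.56 in Col (difference -1.17, SE 0.369, limma adjusted p = 1). HRGP1, a hydroxyproline-rich glycoprotein gene, differed by -1.28, PRP3, a proline-rich protein gene of root hairs, by -1.25, and LRX1, a leucine-rich repeat extensin of root hairs, by -1.31. In these genes the 5-day CCA1-34 array was nearest to Col. AGP31, an arabinogalactan protein gene, read 9.26, 8.41 and 8.83 in CCA1-34 and 9.50, 9.63 and 10.35 in Col (difference -0.99, SE 0.278, and 0.01 at the late time). PRP1 (-1.11) overlapped between the groups, and PRP2 went the other way (1.38, SE 0.577). Of the root hair genes in the root list COBL9 differed by -0.45, EXPA7 by -0.58, EXPA18 by -0.60 and RHD6 by 0.02, while the endodermal CASP genes had higher means, up to 1.58 for CASP5. Over the 14 root markers 11 means were higher (median 0.35, and 0.17 with 9 higher without both arrays), and their array means ran from 5.86 to 6.53 in CCA1-34 and from 4.88 to 6.33 in Col. The part of root tissue in these differences was not tested.

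The remaining genes named by size are given here, and those without a symbol were not assigned to a kind. FLA13, a fasciclin-like arabinogalactan protein gene, read 7.66, 7.51 and 7.30 in CCA1-34, against 5.82, 6.49 and 6.59 in Col (difference 1.19, SE 0.209, limma adjusted p = 0.627). It differed by 0.35 at the late time. Among genes without a symbol, AT4G17470 read 6.46, 6.98 and 6.85 in CCA1-34 and 5.73, 5.32 and 4.03 in Col (difference 1.74, SE 0.454). AT3G01570, AT3G15670, AT1G72140, AT2G43535, AT2G43530 and AT5G01300 were higher without overlap by 1.1 to 1.44. AT2G43530 and AT2G43535 have neighbouring locus numbers, and they differed by -0.31 and 0.57 at the late time. On the lower side, AT3G49960 differed by -1.44, AT5G04960 by -1.04, AT2G29670 by -0.95 and AT3G54040 by -0.79. OSM34, an osmotin-like gene, differed by -0.89, and AtCDC48B, of the CDC48 ATPase family, by -0.98, both without overlap and with limma adjusted p = 1. PYK10, a root beta-glucosidase gene, was 0.20 higher in CCA1-34 without overlap.

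Transcripts of the chloroplast genome were mostly lower. Of 72 measured 61 had a lower mean in CCA1-34, with a median of -0.28, against -0.01 over all probe sets, and 2 lay below Col in every array (2.78%, against 4.49% of all). ATCG00300 was the largest of these, at 8.52, 9.17 and 8.45 in CCA1-34, against 9.96, 10.10 and 9.90 in Col. The lines were separated by a wide margin (difference -1.28, SE 0.286, limma adjusted p = 1). At the late time it differed by -0.07 (difference between the times -1.2). The chloroplast list averaged 8.24, 8.63 and 7.99 in CCA1-34 and 8.53, 8.55 and 8.68 in Col, and its median was -0.37 without both arrays that stood apart and -0.12 at the late time. Of its 72 members 71 were above the median level of the probe sets, whereas the background includes dim ones. At a limma unadjusted p under 0.05, 2 members were lower and 1 was higher. Of 65 mitochondrial genome transcripts 38 were lower (median -0.05), and 5 lay below Col in every array (7.69%). The nuclear photosynthesis markers differed by -0.08 to 0.17.

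**Figure D5:**
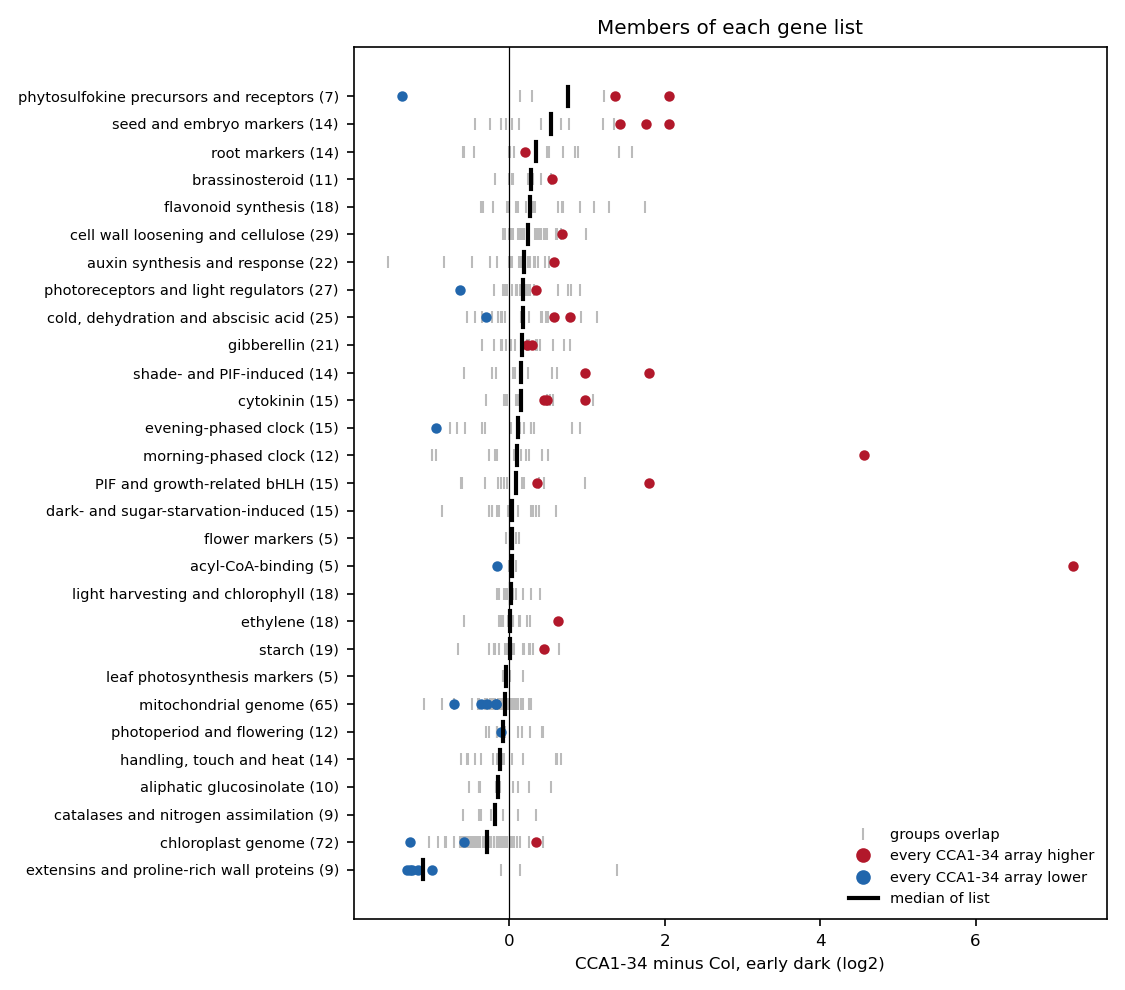
Difference between the lines in the early dark (horizontal axis, log2) for the members of each gene list (vertical axis, number measured in brackets), with thick bars for list medians and coloured points for members whose groups did not overlap. Apart from CCA1 (4.56) and ACBP6 (7.25), the members lie within about 2 of 0. The medians run from -1.11 for extensins to 0.76 for phytosulfokine genes, both lists added after their values were seen. Among the other lists they run from -0.28 for the chloroplast genome to 0.54 for seed and embryo markers.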

How the data were processed

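Biotin-labelled cRNA from 5 ug of total RNA was hybridised to Affymetrix arrays, 1 per sample. The deposited log2 values were made by the authors with RMA, as stated in the file headers. The submitters' processing notes name it too. Its version is not given in the sources used here. Of 22810 probe sets 64 controls were left out. The 12 arrays were fitted together with limma 3.58.1 in R 4.3.3 (4 group means, eBayes without trend, two-sided, Benjamini-Hochberg over 22746 probe sets, threshold 0.05), with 8 residual degrees of freedom and a median SE of 0.16. Dim probe sets were kept. Precision is limited by the number of arrays. The fit was tested on simulated data.

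Genes were named from the 21361 probe sets with 1 locus, with symbols from NCBI's TAIR10.1 annotation or common usage. A gene's probe set with the highest mean stands for it. PRR9 had no such probe set. Named were those past the threshold in the main fit, with the replicate block, in the early arrays alone or without both arrays that stood apart. Further named were the 12 largest differences per direction among non-overlapping groups with a higher mean of at least 6. Up to 4 non-overlapping members per list were added. A set of clock genes, PIF4, PIF5 and ACBP6 was to be named whatever the values. The members, the 25 lists and the tests were chosen with earlier results of these data known, and lists overlap in genes. Genes called chosen after their values were seen fall outside the rule.

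Replicate numbers pair arrays by age, per the labels. Deviations from the group means of arrays of the same age correlated at 0.483, -0.317 and -0.161. The arrays of a group differ in age, so the spread within a group in the main fit includes differences of age. The labels do not say whether arrays came from separate cultures, and p-values then reflect only how these samples vary, which may be partly technical. Alternatives were the early arrays alone, the age as a replicate block, other variance priors, array weights, a filter on dim probe sets, 2 further normalizations, and arrays left out. RMA usually includes quantile normalization, which would reduce a shift of most transcripts.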

Additional observations from a re-analysis of the deposited data

How the results depend on the processing

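The call of ACBP6 held in every setting tried, with differences of 7.18 to 7.29 when any 1 early array was left out. The number of probe sets past the threshold was 1 with the replicate block, with the early arrays alone, with both of these, with a robust prior, with array weights and without both arrays that stood apart. It was 2 with an intensity trend, with the filter on dim probe sets (8663 tested), with quantile normalization and with median centring, where AT3G25150 passed as well. Leaving out 1 early array gave 1 to 3. AT3G25150 was added without the 6-day CCA1-34 array (-2.03, adjusted p = 0.0207), AT3G25150 (-2.76, 0.00203) and SESA5 without the 7-day CCA1-34 array, and CCA1 without the 7-day Col array. With any 1 early array left out, CCA1 differed by 3.62 to 5.57. In paired analysis, with age as a replicate block, the count stayed at 1 (ACBP6 adjusted p = 1.21e-08, CCA1 0.254) and 1021 probe sets had an unadjusted p under 0.05. The block changed no call. The difference between the times passed for 0 probe sets in each setting tried. Some differences near 0 changed sign. Without 1 early array PRR7 ran from -0.25 to 0.594 and was -0.219 without the 6-day CCA1-34 array, GI ran from -0.587 to 0.998, PIF5 from -0.299 to 0.179 (0.002 without the 5-day CCA1-34 array) and PSKR1 from -0.052 to 0.36. With array weights PIF5 was 0.037 and PSKR1 -0.047, and without both arrays that stood apart PIF5 was 0.028. The cause was not tested. Each list median was compared with its value in the other settings. It moved beyond the spread between arrays in 17 of these comparisons and stayed the same in 475. Signals near the array medians of about 4.07 are not shown to be above background, which limits the size of differences there.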
